A study of Homo sapiens with 4 samples.

Results

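The Rab GTPases and the TBC-domain proteins were taken as every gene symbol in the transcript tables that began with RAB or TBC1D followed by a digit. This rule found 112 of 23287 symbols, with 198 of 41138 transcripts. They comprised 61 Rab GTPases, 37 TBC1D symbols, 9 Rab partners named after a Rab, 4 pseudogenes and 1 read-through transcript. A symbol was retained when the sum of its transcripts reached an FPKM of 1 in at least 1 condition (FPKM counts fragments, scaled to transcript length and library depth). Of the 112 symbols 76 were retained, against 11018 of all 23287.

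Rab proteins are small GTPases that mark the membranes of the secretory and endocytic routes. Bound to GTP they recruit effectors such as motors and tethers, and guanine nucleotide exchange factors load them with GTP. Proteins with a TBC (Tre-2/Bub2/Cdc16) domain act as GTPase-activating proteins (GAPs) that return Rabs to the GDP-bound state. In mammary epithelial cells these routes carry secretory vesicles, adhesion molecules and growth factor receptors.

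The libraries came from T47D cells, an established line of luminal breast cancer cells that express the progesterone receptor (PR). For RNA-seq the cells were put in charcoal-stripped serum 24 h before harvest, and for ChIP-seq 3 days before. RNA was taken after 3 h with ethanol vehicle (EtOH) or with 10 nM R5020, a synthetic progestin. PR binding sites came from 1 ChIP-seq library of T47D cells given R5020 at 10 nM for 1 h, and the matching input DNA was not analysed on its own here. Each condition was 1 RNA-seq library, so no difference below has a replicate check, and none was tested. All ratios compare 1 library with another, and in such bulk samples fewer cells with a transcript and less of it per cell cannot be told apart.

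The transcript coverage values correspond to about 36203604 reads for R5020 and 35151493 for EtOH, and the retained members held between 109 and 25846 reads in a library. The paper reports larger totals of unique paired-end reads, with EtOH above R5020. These coverage totals are therefore no measure of library depth. Luminal genes were abundant in both libraries, for example *GATA3* at 253 FPKM with vehicle and 126 with R5020, and *KRT19* at 608 and 477. The basal, leukocyte and endothelial markers examined lay below an FPKM of 1 in both libraries with the exception of *COL1A1* (5.12 in EtOH, 3.31 in R5020). *KRT8* and *KRT18* had failed estimates in the EtOH library. *FKBP5*, a well known progestin target, stood at 15.9 in EtOH and 86.6 in R5020.

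The summed level of the family was nearly the same in both libraries. All 112 symbols, retained or not, added up to 962 FPKM with vehicle and 978 with R5020. Without *TBC1D14*, whose R5020 estimate failed, the sums were 957 and 978. Of the 76 retained members 35 were above and 41 below a log2 ratio of 0, where every ratio is log2((FPKM in R5020 + 1)/(FPKM in EtOH + 1)). The median log2 ratio was -0.02, beside 0.01 for all retained genes. The lower and upper quartiles of the family were -0.21 and 0.12, against -0.17 and 0.19 for all retained genes.

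At a threshold of 1.5-fold, 7 members (9.21%) were higher in R5020, while 7.67% of all retained genes passed the same threshold. In order of the ratio they were *TBC1D8*, *RAB4A*, *RAB11FIP1*, *TBC1D4*, *TBC1D20*, *TBC1D12* and *RAB33B*. They thus included 4 of 24 retained TBC1D symbols, 2 of 44 retained Rab GTPases and 1 of 8 retained Rab partners. Only 1 member, *TBC1D14*, was listed as lower by that much, against 4.14% of all retained genes. Its zero was a failed estimate, as described below, so with 1 added to each FPKM no member with a valid estimate in both libraries passed the threshold downward. This depends on the added 1. *RAB30*, *RAB20* and *RAB2B* were 1.68, 1.60 and 1.55 times lower in R5020 by FPKM alone.

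**Figure D1:**
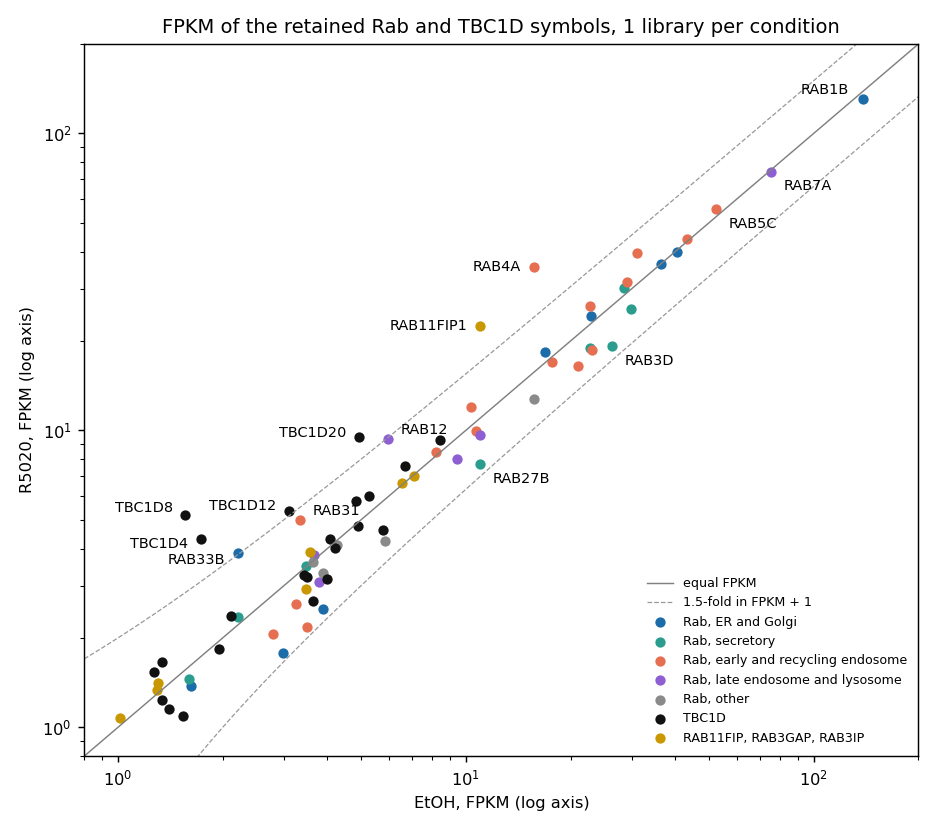
Summed FPKM in the EtOH library (horizontal, log axis) and in the R5020 library (vertical, log axis) for the 75 retained members without a failed estimate, coloured by role, 1 library per condition. The solid line marks equal values and the dashed lines a ratio of 1.5 after adding 1 to each FPKM. *RAB4A* and *RAB11FIP1* are the higher members of greatest abundance, and *RAB1B*, *RAB7A* and *RAB5C* lie near the solid line.

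*RAB4A* encodes a Rab of early endosomes that acts in the rapid return of receptors to the cell surface. Its single transcript (chromosome 1, 229406879 to 229440518, hg19) gave 15.7 FPKM for the vehicle library and 35.5 for R5020, a log2 ratio of 1.13. These levels rested on about 2754 and 5949 reads. Its closest relative *RAB4B* went the other way, at 2.80 in EtOH and 2.05 in R5020 (log2 ratio -0.31), so that *RAB4A* was the predominant *RAB4* gene in both libraries. The small gene *SPHAR* overlaps *RAB4A* and was listed at 0 in both libraries. The neighbouring gene *C1orf96*, 16234 bases away, was at 4.67 in EtOH and 8.54 in R5020.

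*RAB11FIP1* encodes an effector that binds the Rab11 proteins of recycling endosomes. It was at 11.0 FPKM with vehicle and 22.4 with R5020 (log2 ratio 0.97), on chromosome 8 from 37716465 to 37757015. Both of its listed transcripts were higher, with log2 ratios of 0.92 and 0.89, and the second of them was at 4.60 and 9.41. The other 4 members of the same effector family were low and nearly level. *RAB11FIP2* was at 1.01 and 1.07, *RAB11FIP3* at 1.30 and 1.33, *RAB11FIP5* at 1.30 and 1.41, and *RAB11FIP4* at 3.48 and 2.93 in EtOH and R5020. Among the Rab11 proteins themselves *RAB11A* stood at 43.1 and 44.1, *RAB11B* at 21.0 and 16.5, and the epithelial member *RAB25* at 23.0 and 18.6.

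*TBC1D8* had the highest ratio of the family, 1.56 FPKM with vehicle against 5.19 with R5020 (log2 ratio 1.27). Its gene spans chromosome 2 from 101623690 to 101767846. One of 3 *RPL31* transcripts runs across 12466 bases of this locus and was listed at 0 in both libraries, while the 2 expressed *RPL31* transcripts end before it. Its paralog *TBC1D8B* was below the retention level, at 0.94 and 0.57.

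*TBC1D4* encodes AS160, the Akt substrate known for its part in glucose transporter traffic. It was at 1.74 in EtOH and 4.32 in R5020 (log2 ratio 0.96, chromosome 13, 75858809 to 76056250). Its closest relative *TBC1D1* was at 1.96 and 1.84, so the pair was similar in EtOH and differed in R5020. Rabs that AS160 is known to act on lay far above it, *RAB10* at 28.6 and 30.1, *RAB8A* at 22.8 and 18.9, and *RAB14* at 31.1 and 39.4.

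*TBC1D20* encodes a GAP of Rab1, the Rab of transport from the endoplasmic reticulum to the Golgi. It was at 4.92 in EtOH and 9.52 in R5020 (log2 ratio 0.83, chromosome 20, 416124 to 443187). Its substrates were among the most abundant members and were nearly level, *RAB1B* at 139 and 130 and *RAB1A* at 36.4 and 36.2.

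The ratios of the remaining 2 were close to the threshold. *TBC1D12*, whose product resides on Rab11-positive recycling endosomes, was at 3.09 in EtOH and 5.35 in R5020 (log2 ratio 0.63, chromosome 10, 96162186 to 96296089). *RAB33B*, a Golgi Rab that also acts in autophagosome formation, was at 2.21 and 3.86 (log2 ratio 0.60, chromosome 4, 140374961 to 140397069). *RAB33A* was listed at 0 in EtOH and 0.06 in R5020. Of the genes within 50 kb, *SETD7* beside *RAB33B* was at 10.0 and 24.9 (log2 ratio 1.23). Beside *TBC1D12*, *HELLS* was at 12.5 and 15.2 and *NOC3L* at 4.80 and 7.61 (log2 ratios 0.27 and 0.57). The expressed neighbours of *TBC1D20* (*RBCK1*, *CSNK2A1* and *TRIB3*) had log2 ratios of 0.12, 0.10 and -0.13, *COMMD6* beside *TBC1D4* had -0.43 and *BRF2* beside *RAB11FIP1* had 0.14. *GPR124*, also beside *RAB11FIP1*, was listed at 0 in EtOH and was at 1.39 in R5020.

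Just below the threshold stood *RAB12*, a Rab of traffic to lysosomes, at 5.97 in EtOH and 9.37 in R5020 (log2 ratio 0.57). By FPKM alone, without the added 1, it was 1.57 times higher in R5020. The paper lists it as progestin-regulated. The next was *RAB31*, which acts between the trans-Golgi network and endosomes, at 3.34 and 4.97 (log2 ratio 0.46). *RAB14* followed with a log2 ratio of 0.33. *RAB9B*, a Rab of the late endosome to Golgi route, was not retained, at 0.47 in EtOH and 0.24 in R5020, and its relative *RAB9A* was at 11.0 and 9.64. The paper lists *RAB9B* too among the regulated genes.

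**Figure D2:**
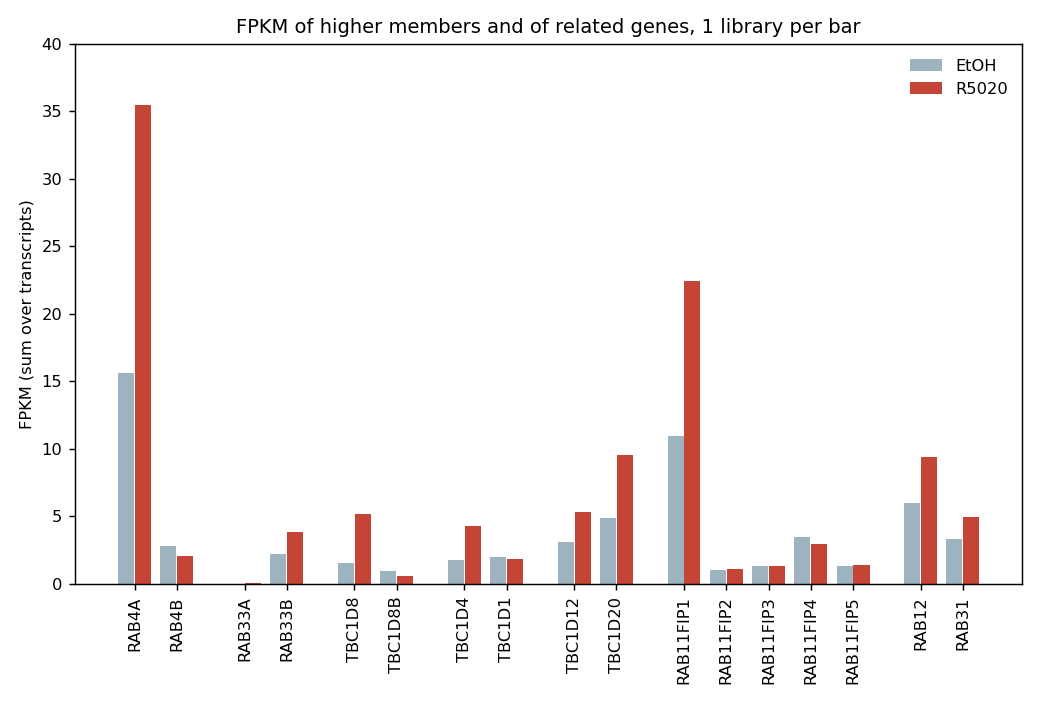
Summed FPKM (vertical axis, from 0) in the EtOH and R5020 libraries for the higher members, their close relatives and the near-threshold genes, each bar 1 library without replicates. In each of the *RAB4*, *RAB33*, *TBC1D8* and *TBC1D4*/*TBC1D1* sets and among the 5 *RAB11FIP* genes, 1 gene was higher in R5020 by at least 1.5-fold.

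By role, the early and recycling endosome Rabs were the group with the highest summed level, and all 16 were retained. They summed to 298 FPKM with vehicle and 327 with R5020, and *RAB4A* accounted for 19.8 of that difference. *RAB4A* was the only one past 1.5-fold (6.25%, against 7.67% of all retained genes higher and 4.14% lower). Of the 16, 9 were above and 7 below a log2 ratio of 0. The early endosome trio was level, *RAB5A* at 17.6 and 17.0, *RAB5B* at 29.0 and 31.6, and *RAB5C* at 52.3 and 55.5. At the low end was *RAB20*, at 3.48 and 2.17 (log2 ratio -0.50), followed by *RAB11B*, *RAB4B* and *RAB25* (log2 ratios -0.33, -0.31 and -0.29). The epithelial *RAB17* was at 3.24 and 2.60 (log2 ratio -0.24).

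Of 14 Rabs of the endoplasmic reticulum and Golgi 9 were retained, and the sum over all 14 was 268 in EtOH and 260 in R5020. *RAB33B* was past 1.5-fold (11.1%, against 7.67% of all retained genes higher) and 6 of the 9 were below a log2 ratio of 0. The abundant *RAB18* (40.6 and 39.8), *RAB6A* (22.9 and 24.3) and *RAB2A* (16.8 and 18.4) differed little. *RAB30*, a Golgi Rab, was the lowest ratio of the family among valid estimates, at 2.98 in EtOH and 1.78 in R5020 (log2 ratio -0.52). It was followed in its group by *RAB2B*, at 3.88 and 2.51 (log2 ratio -0.48). *SNORA70E*, which overlaps *RAB30*, was listed at 12.1 in EtOH and 0 in R5020. Whether this overlap bears on the *RAB30* values was not tested.

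The secretory Rabs showed no member past 1.5-fold in either direction among 8 retained of 12. Over all retained genes 7.67% were higher and 4.14% lower, so none among so few genes is no result about this group. The sum over all 12 was 127 in EtOH and 109 in R5020. *RAB27B* and *RAB3D*, both of which act on secretory vesicles, had the lowest ratios, *RAB27B* at 11.0 and 7.68 (log2 ratio -0.46) and *RAB3D* at 26.4 and 19.2 (log2 ratio -0.44). *RAB27A* was at 2.21 and 2.36, and *RAB13*, a Rab of epithelial junctions, at 29.9 and 25.6.

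Among the Rabs of late endosomes and lysosomes 6 of 8 were retained and none passed the threshold with 1 added to each FPKM. With 7.67% of all retained genes higher and 4.14% lower, this too is no result about so small a group. *RAB7A*, the main Rab of late endosomes, was at 75.2 and 74.3. *RAB32* was at 9.45 and 7.99. The 5 retained Rabs placed in no route (*RAB40C*, *RAB40B*, *RAB34*, *RAB23* and *RAB28*) were below a log2 ratio of 0, from -0.39 to -0.01, by the sums of all transcripts. For *RAB34* this rests on 2 transcripts of low-data status. Without them it was at 0.77 in EtOH and 1.94 in R5020, a log2 ratio of 0.73, so its direction depends on them. The 0.77 came from a transcript listed at 0 in R5020, and the 1.94 from other transcripts listed at 0 in EtOH. The split of reads between transcripts therefore limits this ratio as well. *RAB40B* and *RAB40C* encode Rabs with a SOCS box that joins them to ubiquitin ligases, and *RAB40C* was at 5.87 and 4.25.

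The TBC1D symbols were low in level throughout. The median FPKM of the 24 that were retained was 3.57 in EtOH and 3.64 in R5020, whereas the median of the 44 retained Rab GTPases was 10.8 and 9.78. Apart from the 4 higher members and *TBC1D14*, their log2 ratios ran from -0.34 for *TBC1D9* (3.64 and 2.67) to 0.21 for *TBC1D15* (4.83 and 5.77). Of these 37 symbols 13 were not retained, and 6 were listed at 0 in both libraries. Several of those 13 are near-identical *TBC1D3* copies on chromosome 17, for which reads that map to several places were discarded before counting, so their low values are uncertain.

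**Figure D3:**
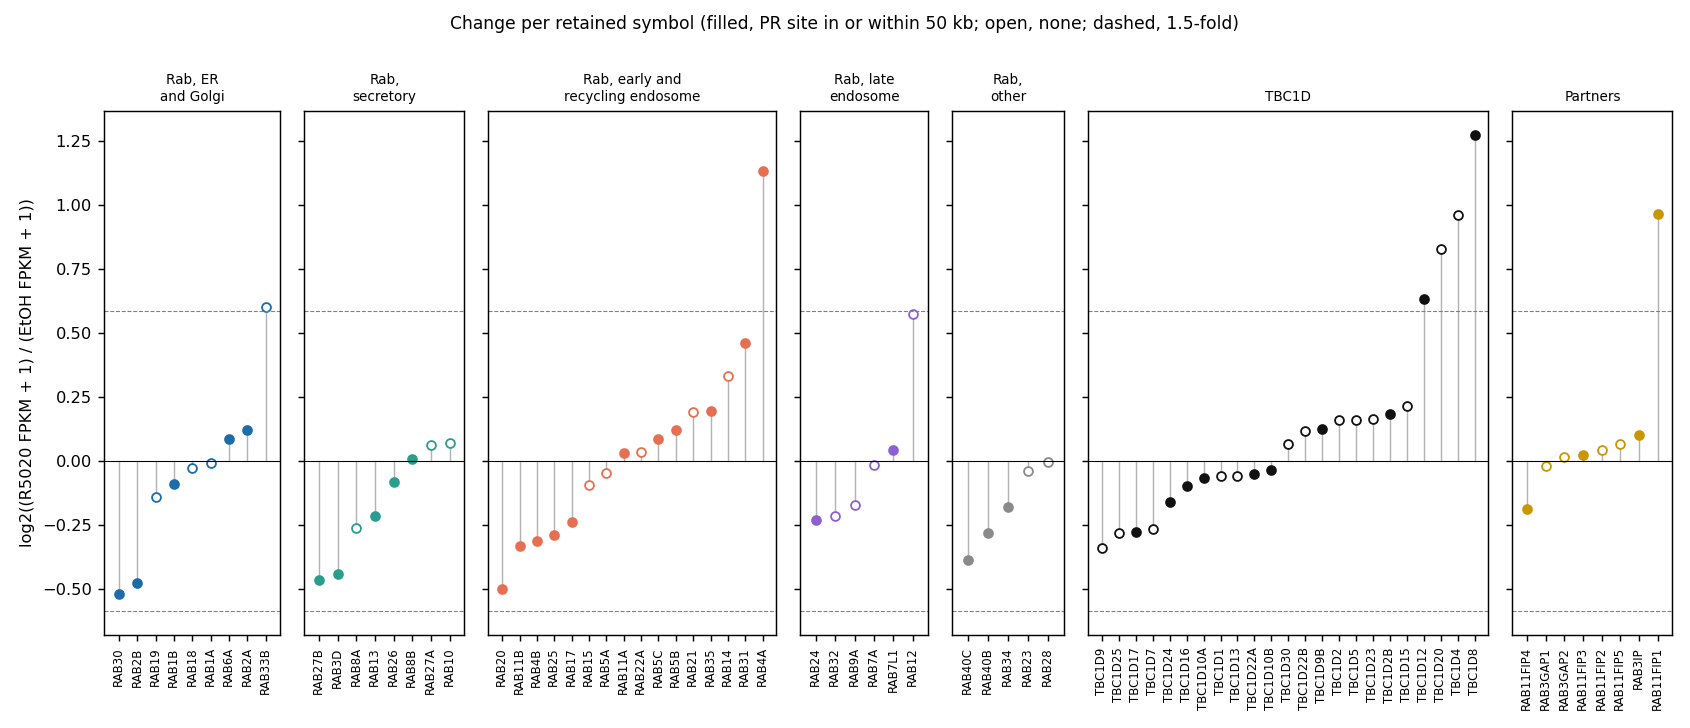
Log2 ratio of R5020 to EtOH (vertical axis, after adding 1 to each FPKM) for the 75 retained members without a failed estimate, by role, each point 1 symbol measured in 1 library per condition. Filled points have a PR site in or within 50 kb of the locus, open points have none, and dashed lines mark 1.5-fold. Filled and open points occur among the 7 higher members (4 and 3) and among the rest.

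*TBC1D14*, whose product binds Rab11 and acts in autophagy, was listed at 5.15 in EtOH and 0 in R5020. The tables gave the status FAIL to all 3 of its transcripts in the R5020 library, so its level there was not estimated. It was left out of the ranges given here. Such failures were rare, with 13 transcripts in the R5020 library and 9 in the EtOH library.

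The sum of a gene and the split between its transcripts could differ. *RAB11A* was level in sum, yet 1 transcript went from 5.37 in EtOH to a listed 0 in R5020 while the other went from 37.7 to 44.1. For *RAB24* the 2 transcripts were at 1.74 and 2.03 in EtOH and at 3.08 and 0 in R5020. *RAB23* had transcripts at 2.84 and 1.41 in EtOH and at 4.11 and 0 in R5020. The transcripts of each of these genes overlap over most of their length, and 6 of the 7 higher members had a single listed transcript.

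Genes that load, carry and read Rab proteins were examined in lists of known exchange factors, prenylation and GDI proteins, effectors, GAPs with other names and Rab-like proteins. Of 35 exchange factors found 28 were retained, 3 higher (10.7%, against 7.67% of all retained genes) and 1 lower (against 4.14%) by 1.5-fold. The higher ones were *SH3BP5*, an exchange factor for Rab11, at 6.70 in EtOH and 17.6 in R5020 (log2 ratio 1.28), *KIAA1432* at 3.18 and 6.39 (log2 ratio 0.82) and *DENND1B* at 1.72 and 3.27 (log2 ratio 0.65). The lower one was *DENND2D*, at 5.91 and 3.30 (log2 ratio -0.68).

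Of 39 effectors found 28 were retained, 1 higher (3.57%, against 7.67% of all) and 2 lower (against 4.14%). *BICD2*, an adaptor that links Rab6 vesicles to dynein, was at 2.26 in EtOH and 5.53 in R5020. *RABEP1* and *RABEP2*, the rabaptins that bind Rab4 and Rab5, were at 28.1 and 17.1 (log2 ratio -0.68) and at 3.36 and 1.79 (log2 ratio -0.64). *RABEP1* thus lay above *RAB4A* in EtOH and below it in R5020. None of the 7 prenylation and GDI genes, the 8 retained GAPs of other names or the 5 retained Rab-like genes passed 1.5-fold. These lists are too short for such a count to be set apart from the shares of all retained genes. The highest ratios there belonged to the Rab5 GAP *USP6NL*, at 5.11 and 7.76 (log2 ratio 0.52), and to *RASEF*, at 6.76 and 9.82 (log2 ratio 0.48). The median log2 ratio was -0.02 for the exchange factors and -0.05 for the effectors, beside 0.01 for all retained genes.

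PR binding was read from 11181 sites, each with the peak score that was deposited. The score column has no header and its scale is not stated, so scores are used here only to compare sites with each other. A site was tied to a gene when it lay inside the gene or within 50 kb of it. By this measure 41 of 76 retained members (53.9%) had a PR site, and 52.7% of all retained genes did. A site inside the locus was found for 25 members (32.9%) and for 22.5% of all retained genes. The members were longer, with a median span of 39.1 kb against 27.6 kb, and the part of length in this difference was not tested. Within 10 kb the shares were 47.4% and 33.0%, and within 100 kb 63.2% and 64.3%.

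Of the 7 higher members 4 (57.1%) had a site in or within 50 kb, while 61.4% of all higher genes did. *RAB4A* had an intronic site 2.35 kb past the gene start (score 66.3), and another 39.5 kb before it (score 96.3). *TBC1D8* had 1 intronic site 30.7 kb past the start (score 64.2). *RAB11FIP1* had 4 sites, the highest an intronic one with a score of 224. *TBC1D12* had 1 site 9.30 kb past its end (score 65.1), which lies in the neighbouring gene *HELLS*.

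The other 3 higher members had no site so near. The nearest to *TBC1D20* was 67.6 kb away, with a score of 394. The nearest to *TBC1D4* and *RAB33B* lay at 239 kb and 558 kb, and that of the near-threshold *RAB12* at 131 kb. *RAB31* had 3 sites inside the gene, with scores of 122, 90.5 and 65.7. Sites were also present at members at the low end, *RAB30* with 1 inside the gene (score 65.4) and *RAB20* with 2 (scores 66.0 and 80.7).

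**Figure D4:**
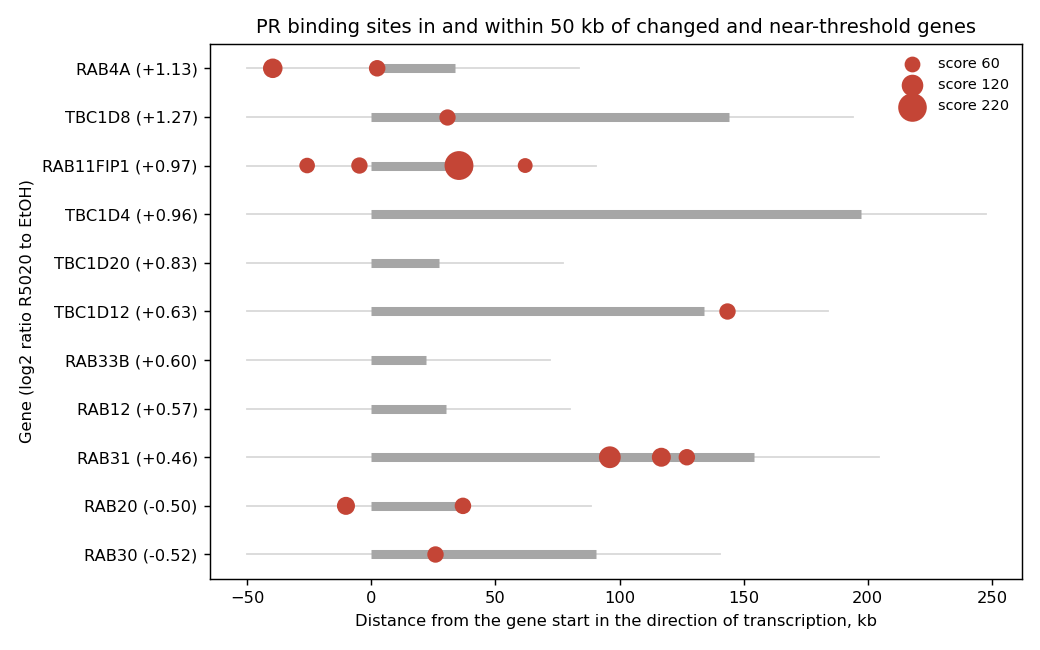
PR sites (red circles, area in proportion to the score) in and within 50 kb of the 7 higher members, *RAB12*, *RAB31* and the low-ratio *RAB20* and *RAB30*, by distance from the gene start in kb in the direction of transcription. Grey bars are gene bodies, thin lines the 50 kb on each side, and the log2 ratio stands beside each name. *TBC1D4*, *TBC1D20*, *RAB33B* and *RAB12* show no circle, and *RAB31* shows 3 inside its body.

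In all, 140 sites lay in or near the 112 members, 47 of them inside a member. Their median score was 74.1, against 74.5 for all sites. A score of 100 or more was held by 13 of them (9.29%) and by 1824 of all sites (16.3%). The highest belonged to *RAB40B* (538, at 42.5 kb, within an intron of *FOXK2*), *RAB17* (290.0, at 14.9 kb), *RAB11FIP1* (224), *RAB39A* (135), *RAB3IP* (123) and *RAB31* (122). They were followed by *TBC1D9B* (119), *RAB33A* (116), *RAB27B* (113) and *RAB13* (108). Among these 10, 1 (*RAB11FIP1*) was past 1.5-fold, and *RAB39A* and *RAB33A* were not retained. Of all retained genes 7.67% were higher by 1.5-fold and 4.14% lower. *RAB40B* was at 15.7 in EtOH and 12.8 in R5020, *TBC1D9B* at 8.42 and 9.25, and *RAB3IP*, an exchange factor of Rab8, at 3.57 and 3.90.

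Sites were unevenly spread over the chromosomes, from 11.6 per Mb on chromosome 17 to 0.56 per Mb on the X chromosome. All retained members on chromosomes 17, 16 and 11 (5, 5 and 3) had a site in or within 50 kb. So did those on chromosomes 5, 22 and 8 (2 each), at 3.27, 3.14 and 4.71 sites per Mb. None of those on chromosomes 3, 6 and 9 (4, 4 and 3) did, nor did the 2 on chromosome 20, which had 9.71 sites per Mb. The 2 on the X chromosome and the 1 on chromosome 7 (3.90 sites per Mb) had none either. Of the 3 higher members without a site, *TBC1D20* lies on chromosome 20. *RAB33B* and *TBC1D4* lie on chromosomes 4 and 13, with 1.13 and 0.81 sites per Mb against 3.68 over the genome. Whether site density bears on these counts was not tested. Shares of all retained genes were not taken per chromosome, so the members cannot be compared with other genes there.

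The sequence of the central 300 bases is given for 2 sites of higher members and for some of the strongest ones, read from the plus strand of GRCh37 (hg19). The first set holds the upstream site of *RAB4A* and the intronic site of *TBC1D8*. The intronic site of *RAB11FIP1*, which has the highest score among the sites of the higher members (224), is not printed. Capitals mark the hexamer TGTTCT or its reverse complement, the core to which PR and related steroid receptors bind.
RAB4A, upstream, chr1:229367015-229367314: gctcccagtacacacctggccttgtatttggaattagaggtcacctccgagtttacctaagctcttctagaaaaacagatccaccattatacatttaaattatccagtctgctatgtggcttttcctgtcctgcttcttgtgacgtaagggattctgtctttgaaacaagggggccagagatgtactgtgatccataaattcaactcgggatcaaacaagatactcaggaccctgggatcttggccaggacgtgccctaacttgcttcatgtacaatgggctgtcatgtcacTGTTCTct
TBC1D8, intron, chr2:101737032-101737331: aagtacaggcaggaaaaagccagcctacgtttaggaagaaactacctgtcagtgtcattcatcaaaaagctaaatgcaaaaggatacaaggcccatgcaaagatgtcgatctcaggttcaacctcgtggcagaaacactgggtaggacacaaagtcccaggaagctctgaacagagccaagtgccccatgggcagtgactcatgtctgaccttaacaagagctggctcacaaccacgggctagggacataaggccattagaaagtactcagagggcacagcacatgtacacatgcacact
The hexamer occurred once in the upstream window of *RAB4A*, at its edge, and was not in the *TBC1D8* window.

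Strong sites of other retained members, none of them higher by 1.5-fold, are shown for *RAB40B*, *RAB17* and *RAB31*, with capitals for the same hexamer. The site of *RAB3IP*, with a score just above that of *RAB31*, is not printed.
RAB40B, in FOXK2, chr17:80571992-80572291: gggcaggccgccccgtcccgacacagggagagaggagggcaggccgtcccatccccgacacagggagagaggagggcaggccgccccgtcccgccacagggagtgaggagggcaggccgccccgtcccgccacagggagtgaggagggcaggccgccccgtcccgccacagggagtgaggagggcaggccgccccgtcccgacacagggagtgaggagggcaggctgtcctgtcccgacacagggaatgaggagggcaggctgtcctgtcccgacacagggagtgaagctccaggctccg
RAB17, downstream, chr2:238467679-238467978: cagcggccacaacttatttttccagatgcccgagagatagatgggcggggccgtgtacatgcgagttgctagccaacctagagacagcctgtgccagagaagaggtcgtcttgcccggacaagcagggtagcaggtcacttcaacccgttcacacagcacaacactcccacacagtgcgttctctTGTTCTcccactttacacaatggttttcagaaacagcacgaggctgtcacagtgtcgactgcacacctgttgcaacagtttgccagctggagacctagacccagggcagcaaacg
RAB31, intron, chr18:9804161-9804460: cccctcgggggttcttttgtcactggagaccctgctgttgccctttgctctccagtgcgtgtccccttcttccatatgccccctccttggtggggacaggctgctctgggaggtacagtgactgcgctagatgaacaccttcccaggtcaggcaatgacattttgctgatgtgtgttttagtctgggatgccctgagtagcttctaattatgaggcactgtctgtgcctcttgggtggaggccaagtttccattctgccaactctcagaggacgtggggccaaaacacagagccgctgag
The window beside *RAB40B* is a tandem repeat in which the 12-base word aggagggcaggc, a part of the longer repeated unit, occurs 7 times. A 12-base word present at least 5 times was found in 10 of 140 member windows (7.14%) and in 4.81% of the windows of all sites. The window beside *RAB17* held the hexamer once, and those of *RAB40B* and *RAB31* did not hold it.

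The full inverted repeat GNACANNNTGTNC, the textbook form of a progesterone response element, reads the same on both strands. It was found in 1 of 140 member windows, that of a site whose nearer edge lies 431 bases past the end of *TBC1D10A* (score 84.2), where capitals mark it.
TBC1D10A, downstream, chr22:30687059-30687358: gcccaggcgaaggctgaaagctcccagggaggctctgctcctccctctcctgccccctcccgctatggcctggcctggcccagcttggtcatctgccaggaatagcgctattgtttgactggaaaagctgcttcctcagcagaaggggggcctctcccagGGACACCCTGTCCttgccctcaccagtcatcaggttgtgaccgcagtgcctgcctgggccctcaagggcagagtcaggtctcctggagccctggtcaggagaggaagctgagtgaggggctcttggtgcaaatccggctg
*TBC1D10A*, a GAP with Rab35 among its targets, was at 1.34 in EtOH and 1.24 in R5020. The share of member windows with the repeat was 0.714%, against 1.89% of the windows of all sites. In windows placed 5 kb away the shares were 1.43% and 0.438%. The hexamer TGTTCT, searched on both strands and able to overlap the repeat, was in 25 member windows (17.9%) and in 17.7% of all, against 14.3% and 18.9% at 5 kb.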

How the data were processed

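The authors aligned the RNA-seq reads to hg19 with TopHat, dropped reads that mapped to more than 1 place and estimated transcript levels with Cufflinks, and the deposited tables gave FPKM, a status and a read coverage signal per transcript, 1 table per condition, with RefSeq transcript identifiers. The deposited PR sites gave coordinates and a peak score, called by the authors with MACS and the input as control, and Bowtie 1.1.2 is named in the submitters' processing notes. Whether counting used strand was not given in the sources used here.

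FPKM was summed over the transcripts of a symbol. Log2 ratios used a pseudocount of 1, retention an FPKM of 1 in at least 1 condition and calls a 1.5-fold threshold. With 1 library per condition no test was run. Reads were estimated as coverage times length over the 50-base read length. Intervals and limits from such reads would cover counting error only and are not given. Sites were annotated with GENCODE release 44 lifted to GRCh37. Named genes were retained members past or near the threshold (1.4-fold), members the study lists as regulated, the 10 of highest FPKM, the 10 with the highest site score and close paralogs. Members and lists were chosen with earlier results of these data known. Python 3.11.15, pandas 2.3.3, numpy 2.4.6 and matplotlib 3.10.9 were used, and the summing and calling steps were tested on simulated data. Window sequences are given for a few sites only, and 1 that belonged among those chosen is not reported here.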

Additional observations from a re-analysis of the deposited data

How the results depend on the processing

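The counts rest on a pseudocount, a retention level and a threshold, since 1 library per condition gives no spread. Of 42 values of the 7 higher members under the alternatives, 37 kept their direction and side of the threshold, 5 fell short of a 2-fold threshold and 0 reversed. Most of these outcomes were fixed in advance, so the tally is no measure of stability. A change of pseudocount or threshold cannot reverse a ratio, and the rescaling moved log2 ratios by about 0.012. Most of the 7 have a single listed transcript, and all their transcripts had valid status. With a pseudocount of 0.1, 4 members were lower (*RAB20*, *RAB2B*, *RAB30* and *TBC1D14*), *RAB12* joined the higher ones, and 7 genes of the pathway lists were higher and 5 lower, in place of 4 and 3. With no pseudocount, chosen after seeing the data, 3 members were lower. No member was lower (0) with an FPKM of 1 or more in both conditions or with transcripts of valid status only, since the zero of *TBC1D14* then drops out. With valid status only, 8 members were higher, 5 of them with a site, as *RAB34* turned from -0.18 to 0.73 (log2 ratio) and joined them. No *RAB34* transcript of valid status was above 0 in both libraries. At a threshold of 2-fold, 2 members (*RAB4A* and *TBC1D8*) were higher, both with a site, and 2 pathway genes were higher and 0 lower. By the highest transcript of a gene 5 pathway genes were lower. Shares of all retained genes are not given for these changes of pseudocount, threshold, retention, status or transcript. These counts therefore cannot be compared with other genes. The share of members with a PR site was 32.9% at a distance of 0 kb and 14.5% for sites with a score of 100 or more (22.5% and 18.1% of all retained genes). Of the 7 higher members 1 had a site with such a score (28.9% of all higher genes) and 2 had one at or above the median score (49.9%). No paired analysis was possible because each condition held 1 library, and for the same reason no replicate was left out.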

Other observations

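Of the 112 symbols 36 did not reach an FPKM of 1 in either library, and 12 of these were listed at 0 in both. Rabs of neurons and regulated secretion were among them, *RAB3A* at 0.29 in EtOH and 0.47 in R5020, *RAB3B* at 0.14 and 0.17 and *RAB3C* at 0 in both, while *RAB3D* (26.4 and 19.2) was the one abundant *RAB3* gene. *RAB38*, a Rab of melanosomes, was at 0.68 and 0.42, whereas its relative *RAB32* was at 9.45 and 7.99. *RAB6B* was at 0.76 and 0.90 beside *RAB6A* at 22.9 and 24.3. *RAB43* was listed at 0 in both libraries, and the read-through *ISY1-RAB43*, which overlaps it, was at 2.73 and 1.59.

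Of all 112 symbols 51 had a PR site in or within 50 kb, 41 of them among the 76 retained. Of all 23287 symbols 10613 had one, 5803 of them among the 11018 retained. The unretained members named next are examples with several sites. *RAB37* had 6 (0.30 and 0.12 FPKM in EtOH and R5020), *TBC1D10C* had 9 (0.09 and 0.03) and *RAB3IL1* had 3 (0.27 and 0.30). Among retained members *RAB40C* had the most, 12, followed by *TBC1D16* with 10 (3.50 and 3.21), and neither was past 1.5-fold. *MLPH*, which encodes the melanophilin effector of Rab27 and neighbours *RAB17*, had 6 sites and was at 14.9 and 15.6.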
